A study of Danio rerio with 5 samples.

Results

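Single-exon genes, whose deposited gene model is 1 uninterrupted block, were compared between 2 stages of the early zebrafish embryo, the mid-blastula transition (MBT, 4 hours post-fertilisation, sphere stage) and a stage after it (post-MBT, 5.3 hours, 30% epiboly). A row of the deposited gene table was a member when the distance from its start to its end equalled its exonic length. Of 22656 rows, 636 were a single block, and 8 mitochondrial rows, 90 rows with a name starting mir and 70 rows on chromosome 4 starting beyond base 27000000 were set aside, which left 468 single-exon genes. The set-aside stretch of chromosome 4 is its long, repeat-rich arm, and 3 members on the rest of that chromosome (phlda1, pou3f2a and fbxl14b) stayed in. The embryos were of the Tübingen strain, with no genetic change named in the labels, and chorion and yolk had been taken off before RNA extraction. There were 3 MBT and 2 post-MBT libraries of total RNA from these embryos, primed with random hexamers. The labels name neither poly(A) selection nor removal of ribosomal RNA. Whether the libraries of 1 stage stem from separate clutches is not in the labels, and p-values here measure only how far these libraries spread, which may be technical.

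A gene without introns gives a transcript that is not spliced, so its RNA can be complete as soon as polymerase reaches the end. In vertebrates such genes include the replication-dependent histone genes, whose messages end in a stem-loop in place of a poly(A) tail, and many transcription factor, G protein-coupled receptor, Frizzled and claudin genes. Before the MBT the embryo divides fast and runs largely on maternal RNA, and its own genome is transcribed in bulk from the MBT onward.

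Exonic length ran from 12 to 10819 bp with a median of 1375.5 bp, against 2169 bp for the other nuclear rows. Another 5 nuclear rows missed the rule by 1 to 10 bp, among them insm1b, whose model of 2194 bp spans 2199 bp and which had 8, 6 and 4 counts at the MBT and 12 and 7 after it. A RefSeq gene table of a later assembly (GRCz12tu) held 355 of the members, of which 340 were protein-coding. The rest of those 355 included 7 pseudogenes, 2 long non-coding RNAs, 1 ribosomal RNA (zgc:158463), the small nuclear RNA rn7sk and the ribonuclease P RNA rpph1. Clone, locus or other placeholder names were carried by 264 members. The libraries held between 2488983 and 3701401 counts, of which between 1329104 and 2075880 were nuclear, and between 320 and 368 members had at least 1 count in a library.

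Tested single-exon genes were mostly higher after the MBT, in large part through dense blocks of neighbouring members, described below. Of 226 members with enough counts for the test, 158 rose and 26 fell (edgeR's quasi-likelihood test, Benjamini-Hochberg adjusted p under 0.05 over all 12007 tested genes). Of the 158, 86 lay in 4 blocks with histone names, whose members may share reads and are not separate observations. Outside all dense blocks 50.4% of 129 tested members rose and 19.4% fell. Over all tested genes 62.8% were called, 31.0% upward and 31.8% downward, against 69.9% upward and 11.5% downward among the members. The median log2 fold change, post-MBT over MBT, was 1.05 over the tested members and -0.06 over the 11766 other tested nuclear genes. With DESeq2, 155 members rose and 17 fell of 261 tested, where 20.3% of all 14749 tested genes rose and 17.2% fell. A change of at least 2-fold was called upward for 120 of the 226 members and downward for 20. Over all 12007 tested genes it was called upward for 1919 and downward for 2233. The libraries of the stages did not overlap for 198 members (87.6%), where 73.9% of all tested genes did not overlap. The test left out 242 members, so these counts describe the members that passed its count filter and not all 468. Among the tested members 24 passed only through the post-MBT libraries, and of these 22 rose and 0 fell. A further 25 passed only through the MBT libraries, and of these 0 rose and 14 fell. Such members had to be high in that stage to be tested, so their calls are not support for a direction. When counts were scaled by library totals and not by TMM factors, the members' median was 0.64, while the median of all tested genes moved from -0.04 to -0.46. Embryos without chorion and yolk were measured in bulk, so more RNA per cell and more cells that make a transcript cannot be told apart.

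**Figure D1:**
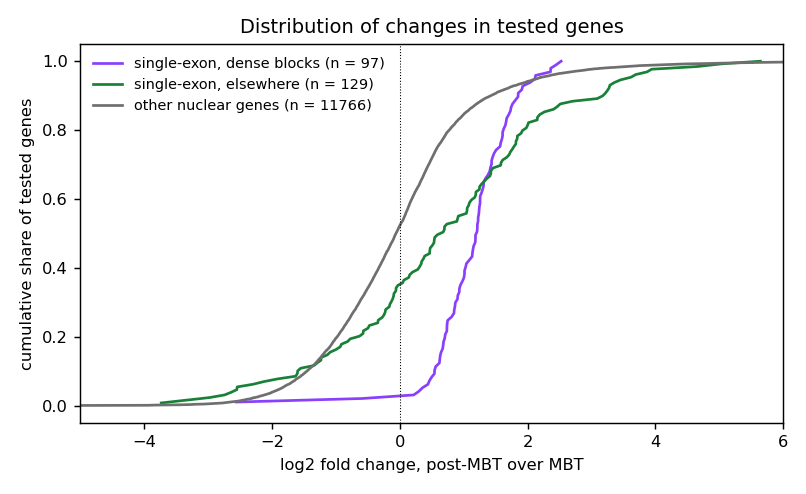
Cumulative share of tested genes (vertical axis) at or below each log2 fold change, post-MBT over MBT (horizontal axis), for 97 single-exon genes in dense blocks, 129 elsewhere and 11766 other nuclear genes. The curve of the dense blocks (median 1.21) is steep and lies to the right of 0 for nearly all its genes, and that of the single-exon genes elsewhere (median 0.68) is broad, from -3.73 to 5.64.

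Single-exon genes held a larger share of the nuclear counts after the MBT, by a factor of 2.06. In the MBT libraries the share was 2.37%, 2.24% and 2.47%, and in the post-MBT libraries 5.05% and 4.65%. The 95% Wilson intervals, in that order, were 2.34 to 2.39%, 2.22 to 2.26%, 2.44 to 2.49%, 5.02 to 5.09% and 4.62 to 4.68%. They cover counting error only and treat reads as independent, so they are too narrow where reads are PCR copies of the same molecule. Every post-MBT library was above every MBT library, with means of 2.36 ± 0.113% (SD, n = 3) and 4.85 ± 0.287% (SD, n = 2). The 2-sided exact permutation p was 0.1, the smallest that the 10 ways to split 3 and 2 libraries allow.

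A single row made up 0.883 of the gain of 2.49 percentage points. The ribosomal RNA gene zgc:158463 (chromosome 5, 825789 to 827000, minus strand) held 0.459%, 0.446% and 0.453% of nuclear counts at the MBT and 1.40% and 1.27% after it. Its log2 fold change was 1.84 ± 0.06, adjusted p = 4.18e-42, and values in parentheses below are likewise log2 fold changes ± SE with edgeR's adjusted p. It is no messenger RNA, and per kilobase of exonic length it had the highest level of all members at both stages. That level went from 1786 ± 32.0 to 6378 ± 454 CPM per kb (mean ± SD, n = 3 and n = 2, where CPM are counts scaled to a common library size with TMM factors). Members in dense blocks went from 1.26%, 1.12% and 1.33% to 2.44% and 2.22% of nuclear counts. All other members went from 0.651%, 0.675% and 0.685% to 1.21% and 1.15%. In each of these 3 groups the libraries of the stages did not overlap. Leaving out both the ribosomal RNA row and the dense blocks, an alternative added after the values were seen, left a difference of 0.524 percentage points.

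**Figure D2:**
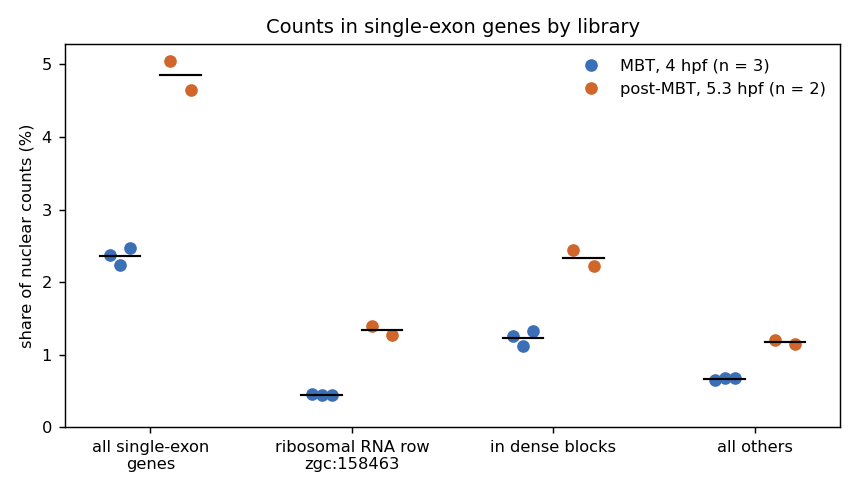
Share of nuclear counts in percent (vertical axis) for all 468 single-exon genes, the ribosomal RNA row, the dense blocks and all other members. Points are libraries (blue MBT, n = 3, orange post-MBT, n = 2) and black lines are stage means. The post-MBT points lie above the MBT points in all 4 columns, from 2.24 to 2.47% against 4.65 to 5.05% in the first.

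Members were shorter than other genes, and log2 fold changes of other genes differed with length, so changes were compared within bins of exonic length. The other nuclear genes had a median log2 fold change of 0.25 under 500 bp (104 genes) and of -0.16 between 3000 and 5000 bp (2797 genes). The members' median was above that of the other genes in all 7 bins. It was 1.02 under 500 bp (54 members), 1.18 from 500 to 1000 bp (51 members) and 0.80 from 1000 to 1500 bp (40 members). Above that it was 1.05 up to 2000 bp (33 members), 0.98 up to 3000 bp (32 members), 0.47 up to 5000 bp (9 members) and 1.28 beyond (7 members). Most members of the 2 shortest bins, 48 and 39, lay in the dense blocks described below. Outside the blocks the medians of the 3 shortest bins were 0.80 (6 members), 0.54 (12 members) and 0.37 (32 members). Those of the other nuclear genes were 0.25, 0.32 and 0.05. When a smooth trend of counts on length was removed from each library, the members' median dropped to 0.52, with 130 risen and 31 fallen members. All 12007 tested genes then had 3941 risen, 3487 fallen and a median of 0.02. That trend is fitted on the members too, which make up 54 tested genes under 500 bp beside the 104 others.

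**Figure D3:**
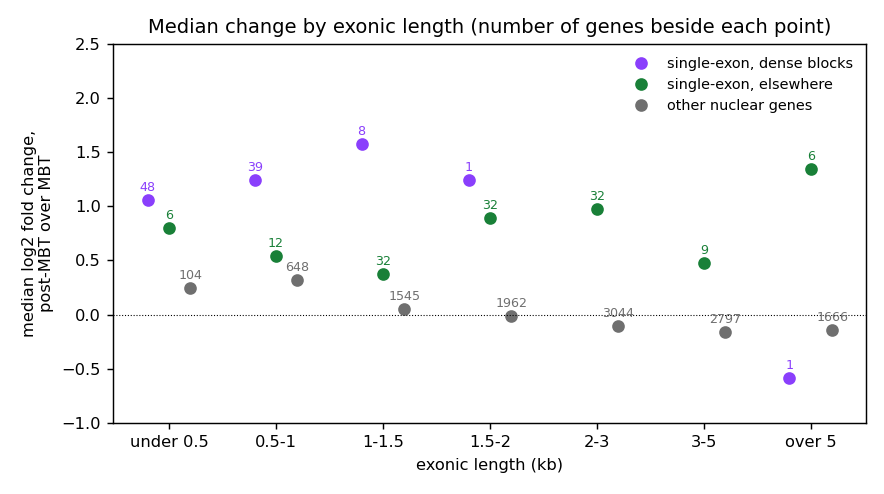
Median log2 fold change, post-MBT over MBT (vertical axis), by exonic length in kb (horizontal axis), for single-exon genes in dense blocks, single-exon genes elsewhere and other nuclear genes. Numbers beside the points are genes per bin. The single-exon genes elsewhere lie above the other nuclear genes in every bin, and the lone block member over 5 kb lies below at -0.59.

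Members were not spread evenly along the chromosomes. When members no more than 50 kb apart were chained, 7 chains held at least 5 members each and together took in 107 of the 468. These dense blocks were almost uniform in direction: of 97 tested members 93 rose, 1 fell (the claudin gene cldnd) and 3 had no call. Near-identical copies may share reads, so these members are not separate observations of a direction. Outside the blocks 65 of 129 tested members rose, 25 fell and 39 had no call. These counts include the 14 falls of members that passed the count filter only through the MBT libraries. They also include rises, such as those of sox2 and fzd10, of members that passed only through the post-MBT libraries. Such calls are not support for a direction. With the length trend removed, the blocks had 66 risen and 5 fallen members and a median of 0.53, and the members outside had 64 risen and 26 fallen and a median of 0.52. The 11766 other tested nuclear genes then had 3800 risen, 3455 fallen and a median of 0.0039. Many histone genes lie in clusters, and 12 members with a histone name in the table or in RefSeq sat in 4 of the blocks. Those 4 blocks held 88 members, all tested, of which 86 rose, 0 fell and 2 had no call (LOC101884770, adjusted p = 0.199, and LOC100331412, adjusted p = 0.213).

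The largest block, on chromosome 25 from 34539568 to 34649029, held 39 members, and all 39 rose. Their summed level was 2703, 2327 and 2890 CPM in the MBT libraries and 6576 and 5878 CPM in the post-MBT libraries, a 2.36-fold rise of the mean. A second block on that chromosome, from 35760376 to 35820637, held 18 members that all rose, from 734.6, 690.6 and 734.0 CPM to 2225 and 2037 CPM (2.96-fold). On chromosome 7 the 22 members between 6210382 and 6334611, all on the minus strand, rose from 1551, 1379 and 1694 CPM to 3579 and 3248 CPM (2.22-fold). The 9 members between 5833626 and 5943689 went from 655.2, 563.3 and 635.4 CPM to 1088 and 997.5 CPM (1.69-fold), with 7 risen. In all 4 blocks the lower post-MBT sum was above the highest MBT sum. With the length trend removed, the medians of these blocks were 0.52, 0.78, 0.23 and -0.13 in the order given, 28, 17, 11 and 4 of their members were called upward, and 0, 0, 1 and 3 downward. The sources used here do not say how multiply mapping reads were counted, so the value of any single near-identical copy is uncertain. For the same reason the numbers of risen members in a block are not numbers of separate observations. If each read was counted once, a block's sum does not depend on how reads were split among its members. The sum would change if shared reads were counted in every copy or left out. It can depend on how reads shared with other rows were counted, and 9 rows that are not members lie inside these blocks.

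The remaining 3 blocks carried no histone name. On chromosome 7 from 73590188 to 73636596, 6 of 7 members rose and the block went from 312.5, 282.9 and 319.4 CPM to 661.3 and 650.4 CPM. Its members, such as zgc:173587, have placeholder names, and nothing is said here of what they encode. A claudin block on chromosome 21 (25717671 to 25759359) went the other way in sum, from 72.5, 85.1 and 79.4 CPM to 33.5 and 35.3 CPM, and is described with the claudins. The 6 members on chromosome 10 from 40591664 to 40691669, among them the trace amine receptor genes taar18a and taar18c, had at most 14 counts per library in sum and were not tested.

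**Figure D4:**
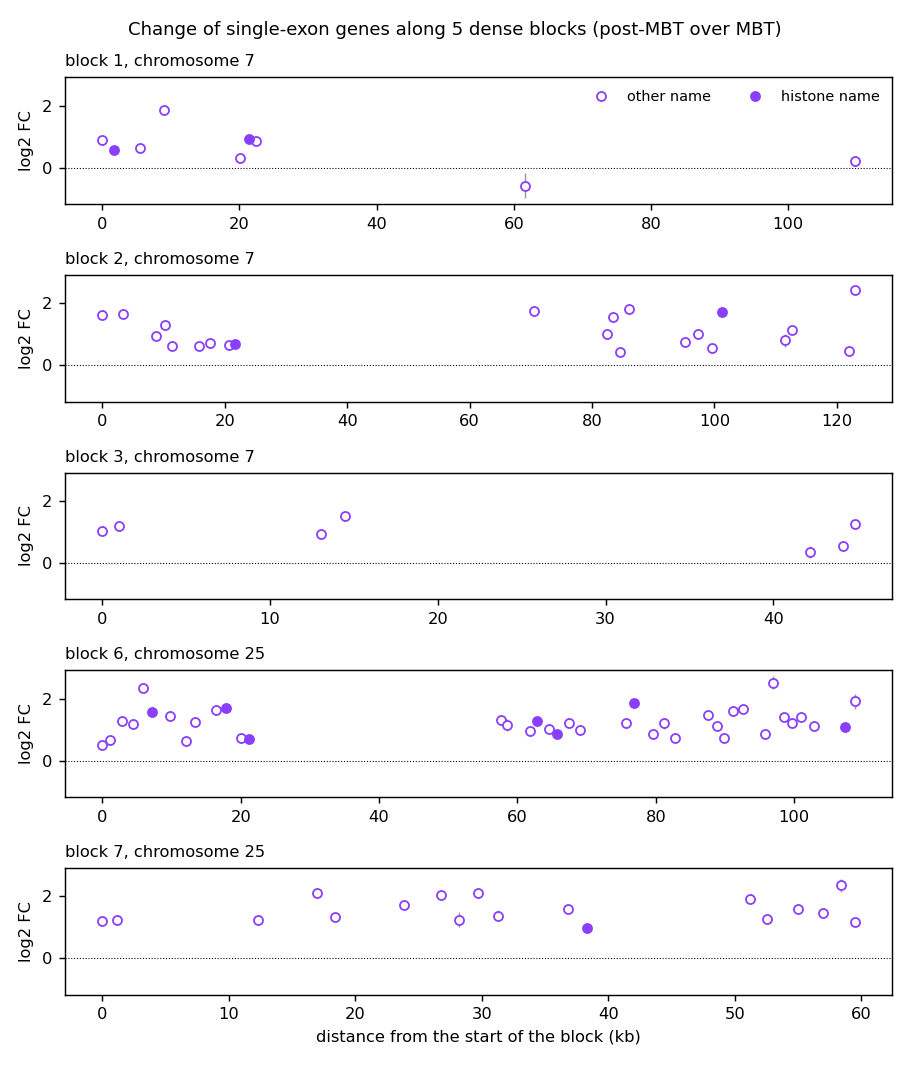
Log2 fold change, post-MBT over MBT (vertical axis, bars are ± SE), of single-exon genes against the distance from the start of their block in kb (horizontal axis) for 5 blocks. Filled points have a histone name and open points another name. Values lie above 0 along the whole length of blocks 2, 6 and 7, in which all 22, 39 and 18 members rose, and 1 long non-coding RNA of block 1 lies below 0.

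Members with a histone name numbered 19, with 18 tested and 18 risen (median 1.21, from 0.56 to 1.85). The linker histones, which bind the DNA between nucleosomes, had 5 tested members, and all 5 rose, by 1.43 to 1.85. Among them h1f0 and h1fx passed the count filter only through the post-MBT libraries. Their calls were lost with DESeq2 and without post-MBT B, that of h1f0 also with library totals (1.02), and neither passed the filter without MBT B. The 8 H2A members, core nucleosome subunits, rose by 0.56 to 1.25. The 3 H3 members rose by 0.91 to 1.71 and the 2 H4 members by 0.70 and 1.28. With the length trend removed the H1 members lay between 1.29 and 1.79, the H2A members between -0.25 and 1.02, the H3 members between 0.38 and 1.67 and the H4 members between 0.50 and 0.53. The difference between the classes was not tested.

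Among the H1 genes, LOC100334868 (histh1l3 in RefSeq) was at 39.0, 30.3 and 44.9 CPM in the MBT libraries and 139 and 129.7 CPM in the post-MBT libraries. The stages were far apart, with a log2 fold change of 1.85 ± 0.12, adjusted p = 7.19e-24. Away from the blocks, histh1l (chromosome 5, 26832826 to 26834198, plus strand) went from 11.2, 9.18 and 8.71 CPM to 35.1 and 32.7 CPM (1.81 ± 0.20, adjusted p = 1.72e-12). The H2A variant gene h2afx, whose product marks DNA breaks once phosphorylated, went from 47.6, 47.5 and 42.1 CPM to 112 and 94.8 CPM (1.17 ± 0.12, adjusted p = 1.19e-14). The libraries of the stages did not overlap for these 3 genes. Of the core histones, the H3 gene hist2h3c went from 61.7, 41.8 and 57.1 CPM to 161 and 152 CPM and the H4 gene hist1h4l from 53.4, 34.4 and 58.2 CPM to 116 and 113 CPM, and both rose, with log2 fold changes of 1.58 ± 0.11 (adjusted p = 1.82e-21) and 1.28 ± 0.13 (adjusted p = 5.06e-13). These were 0.91 and 0.53 with the length trend removed. By the names in the table alone, 7 of 7 tested single-exon histone genes rose, and 6 of 8 multi-exon histone genes rose with none fallen, with medians of 1.43 and 0.64. The 7 include h1f0 and h1fx, whose calls are not support for a direction, since they passed the filter only through the post-MBT libraries. The length trend was not removed for these medians, and their difference was not tested.

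The members with the most RNA per kilobase were, after the ribosomal RNA row, genes of the histone-bearing blocks and hnrnpa0l, joined by hnrnpa0b after the MBT. LOC100334933 in the largest block went from 646 ± 93.3 to 1501 ± 200.1 CPM per kb and zgc:173585 beside it from 242 ± 31.6 to 732 ± 55.5. With the length trend removed the log2 fold change of LOC100334933 was 0.51. LOC100004510 on chromosome 7 changed less, from 427 ± 42.3 to 522 ± 51.2 CPM per kb, a log2 fold change of 0.30 ± 0.09, adjusted p = 0.00192. That rise did not hold up: it was -0.48 with the length trend removed and -0.12 with library totals. LOC100001004 (h2ax2 in RefSeq) rose by 0.68 ± 0.09 and stood at -0.0081 with the length trend removed.

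The hnRNP A0 genes encode nuclear RNA-binding proteins, and all 3 single-exon members rose. hnrnpa0b and hnrnpa0l are neighbours on the plus strand of chromosome 14 (38505417 to 38507122 and 38509186 to 38510619). hnrnpa0b was at 278, 291 and 281 CPM in the MBT libraries and 1200.0 and 1091 CPM in the post-MBT libraries, and its log2 fold change was 2.01 ± 0.07, adjusted p = 1.83e-41. hnrnpa0l, the more abundant, was at 707, 731 and 708 CPM in the MBT libraries and 1587 and 1431 CPM in the post-MBT libraries (1.08 ± 0.06, adjusted p = 6.38e-26). Both pairs of stages were wide apart, and the log2 fold changes of the neighbours differed. The log2 ratio of hnrnpa0b to hnrnpa0l counts was -1.34 ± 0.00934 in the 3 MBT and -0.40 ± 0.00815 in the 2 post-MBT libraries (mean ± SD). For this ratio the 2-sided exact permutation p was 0.1, the smallest possible, and 0.183 after Benjamini-Hochberg adjustment over 11 pairs. hnrnpa0a, elsewhere on that chromosome (chromosome 14, 23980370 to 23982605, plus strand), went from 49.1, 55.1 and 47.4 CPM to 185 and 174 CPM (1.82 ± 0.10, adjusted p = 2.91e-27).

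Non-coding members other than the ribosomal RNA row were few. rn7sk, the small nuclear RNA that holds the elongation kinase P-TEFb inactive, rose from 21.6, 27.5 and 24.0 CPM to 96.3 and 80.7 CPM (1.84 ± 0.13, adjusted p = 6.09e-21, and 1.05 with the length trend removed). No MBT library came near the lower post-MBT library. rpph1, the RNA subunit of the enzyme that trims tRNA precursors, had 10, 14 and 10 counts in the MBT libraries and 24 and 13 in the post-MBT libraries, and its call (adjusted p = 0.0409) was kept in 5 of 12 refits with another scaling, filter or test or without a library. Its log2 fold change was 0.19 with the length trend removed. The only RNA-binding-motif member, rbm15, had a log2 fold change of 0.20 ± 0.12 and was not called (adjusted p = 0.147).

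By the selection rule, the 2 largest rises were those of transcription factor genes, foxd5 and sox3. foxd5, a forkhead gene of the early ectoderm (chromosome 8, 30443713 to 30444864, plus strand), was at 8.66, 13.3 and 10.4 CPM in the MBT libraries and 121 and 107 CPM in the post-MBT libraries (3.36 ± 0.15, adjusted p = 8.08e-34). The lower post-MBT library was far above the highest MBT library. foxd3, a forkhead gene of the pluripotent blastula and the neural crest, rose less, by 0.74 ± 0.19 (adjusted p = 6.12e-04), and lost its call with library totals. foxb1a was not called, and its post-MBT libraries, at 19 and 3 counts, lay on either side of the MBT libraries. Of the 13 single-exon forkhead genes 3 were tested, 2 rose and 0 fell, and of 22 tested multi-exon forkhead genes 8 rose and 7 fell.

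The Sox genes, which encode HMG-box factors, had 4 tested single-exon members of 9, and all 4 rose, although sox2 passed the count filter only through the post-MBT libraries. sox3, of the SoxB1 class that acts in early embryo and neural ectoderm, was at 66.0, 62.4 and 73.2 CPM in the MBT libraries and 395 and 367 CPM in the post-MBT libraries (2.51 ± 0.09, adjusted p = 1.34e-40). sox11a, of the SoxC class, was at 106, 99.1 and 109 CPM in the MBT libraries and 390.5 and 399 CPM in the post-MBT libraries (1.92 ± 0.08, adjusted p = 4.79e-35), and its paralog sox11b at 324, 334 and 380.0 CPM in the MBT libraries and 543 and 563 CPM in the post-MBT libraries (0.68 ± 0.07, adjusted p = 1.54e-13). In all 3 genes the stages were separate, with sox11b the nearest to no change. sox2, the other SoxB1 member, had 1 count over the MBT libraries and 40 over the post-MBT libraries, a ratio of 69.0 scaled for depth (exact 95% interval 11.7 to 2790, counting error only). sox2 and sox3 each overlap another row of the table, and no source used here says whether counting used the strand. Of 8 tested multi-exon Sox genes 2 rose and 4 fell.

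Among immediate early, AP-1 and CEBP genes, 8 single-exon members were tested, of which 6 rose and 0 fell. The 6 include cebpa and junba, which passed the count filter only through the post-MBT libraries, where they are high, so their calls are not support for a direction of the group. ier5, an immediate early response gene (chromosome 22, 16471400 to 16472883, plus strand), had 69, 87 and 77 counts in the MBT libraries and 301 and 244 in the post-MBT libraries (2.0 ± 0.13, adjusted p = 6.13e-23). Its relative ier5l showed 128, 198 and 143 counts in the MBT libraries and 189 and 149 in the post-MBT libraries, and its small change (0.31 ± 0.13, adjusted p = 0.0321) was kept in 5 of 12 refits and was -0.10 with library totals. The bZIP factor gene cebpb had 16, 27 and 19 counts in the MBT libraries and 56 and 54 in the post-MBT libraries (1.61 ± 0.25, adjusted p = 6.24e-08) and cebpa had 0, 3 and 2 counts in the MBT libraries and 18 and 10 in the post-MBT libraries. The AP-1 subunit genes were low: junba had 5, 5 and 5 counts in the MBT libraries and 13 and 20 in the post-MBT libraries, and its call was lost without post-MBT B, junbb was called in 6 of 12 refits, and jun and jund were not called (adjusted p = 0.157 and 0.244). In the multi-exon genes of these families 4 of 7 rose and cebpg fell.

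The 7 single-exon Frizzled genes, which encode Wnt receptors, were all tested, with 4 risen, 1 fallen and 2 not called. Of these, fzd2 and fzd10 passed the count filter only through the post-MBT libraries and fzd5 only through the MBT libraries, where they are high, so these 3 calls are not support for a direction. fzd5 (chromosome 9, 28421776 to 28423698, plus strand) had 77, 120 and 56 counts in the MBT libraries and 12 and 2 in the post-MBT libraries, and its log2 fold change of -3.36 ± 0.33 (adjusted p = 7.64e-15) was the lowest of the members named by the selection rule. It was -5.01 without post-MBT A and -2.68 without post-MBT B. fzd2 and fzd10 were nearly uncounted at the MBT: fzd2 had 0, 4 and 2 counts in the MBT libraries and 17 and 23 in the post-MBT libraries, and fzd10 had 1, 2 and 3 counts in the MBT libraries and 19 and 17 in the post-MBT libraries. fzd7a, with a log2 fold change of 1.05 ± 0.15 (adjusted p = 5.37e-09), was already present at the MBT, going from 25.3, 21.8 and 30.0 CPM to 52.5 and 52.4 CPM. Of the 4 multi-exon Frizzled genes 2 rose and fzd3b fell.

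Both apelin receptor genes, whose products guide cells moving in at gastrulation, rose. aplnrb went from 33.2, 20.6 and 26.1 CPM to 61.5 and 62.1 CPM (1.25 ± 0.15, adjusted p = 1.50e-11) and aplnra from 8.66, 11.0 and 11.8 CPM to 34.1 and 29.0 CPM (1.58 ± 0.21, adjusted p = 2.40e-10). They were 2 of the 3 tested members among 19 single-exon G protein-coupled receptor genes, and the third, gpr160, was not called (adjusted p = 0.209). Of the 19, 15 had fewer than 10 counts over all 5 libraries. Multi-exon genes of these receptor families rose in 9 and fell in 13 of 30 tested cases.

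Claudins are membrane proteins of tight junctions, and neighbours among them moved apart. cldnb and cldnd both lie on the plus strand of chromosome 21 (25729107 to 25730235 and 25740839 to 25741593). cldnd fell from 63.5, 77.8 and 71.1 CPM to 11.9 and 12.3 CPM (-2.56 ± 0.17, adjusted p = 3.99e-23). cldnb rose from 6.86, 5.05 and 7.66 CPM to 18.4 and 16.0 CPM (1.44 ± 0.26, adjusted p = 1.83e-06). The other 4 members of that block, cldnc, zgc:136892, zgc:112437 and LOC796314, had at most 11 counts in any library and were not tested. On chromosome 15, cldne, at 2675312 to 2677249, rose from 9.38, 8.95 and 8.71 CPM to 50.2 and 45.3 CPM (2.41 ± 0.19, adjusted p = 1.66e-19), and si:ch211-95j8.2 (cldn23.1 in RefSeq) rose by 2.19 ± 0.28 (adjusted p = 9.85e-11). Multi-exon claudin genes rose in 2 and fell in 2 of 5 tested cases.

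The falls were fewer and spread over genes of many roles. By the rule for large falls only 5 members qualified, fzd5 and cldnd being the first of them. fem1c, a substrate receptor of a cullin ubiquitin ligase, went from 28.1, 31.4 and 25.1 CPM to 11.9 and 10.4 CPM (-1.34 ± 0.21, adjusted p = 6.48e-08). The sulfotransferase gene chst2a went from 53.8, 40.6 and 46.0 CPM to 30.9 and 28.6 CPM (-0.63 ± 0.15, adjusted p = 2.51e-04), and its relative chst12a had a log2 fold change of -0.999 ± 0.41 (adjusted p = 0.0301), kept in 9 of 12 refits. Multi-exon sulfotransferase and glycosyltransferase genes rose in 4 and fell in 22 of 34 tested cases. irf2bpl changed by -0.57 ± 0.19 (adjusted p = 0.00606), kept in 10 of 12. kbtbd7, an adaptor of another cullin ligase, had 20, 45 and 34 counts in the MBT libraries and 5 and 4 in the post-MBT libraries (-2.64 ± 0.43, adjusted p = 1.60e-07). Of 25 tested multi-exon genes of its BTB and Kelch families 3 rose and 11 fell.

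Further fallen members, except for nanos3, were named after their values were seen. mos, the kinase that holds the vertebrate egg in meiotic arrest (chromosome 15, 17162329 to 17163520, minus strand), had 40, 61 and 38 counts in the MBT libraries and 4 and 6 in the post-MBT libraries (-2.98 ± 0.38, adjusted p = 1.60e-10). LOC101885477, named bncr in RefSeq for the egg membrane protein Bouncer that admits sperm, had 170, 358 and 184 counts in the MBT libraries and 105 and 86 in the post-MBT libraries (-1.09 ± 0.14, adjusted p = 1.96e-10, and -1.94 with the length trend removed), in a row that overlaps another. Both had every post-MBT library below every MBT library. nanos3, a translational repressor gene of germ cells, had 21, 47 and 17 counts in the MBT libraries and 12 and 10 in the post-MBT libraries, and its call (adjusted p = 0.00518) was lost with DESeq2 and without MBT B. Other falls were those of tshz2 (-2.74 ± 0.43), the Fanconi anaemia gene fancf (-2.54 ± 0.54), the kinase-family gene fjx1 (-2.29 ± 0.36), the arginine methyltransferase gene prmt6 (-2.12 ± 0.35), the tubulin-folding gene tbcc (-1.91 ± 0.36), hps6 (-1.63 ± 0.35) and the helicase gene ddx28 (-1.55 ± 0.29), with adjusted p from 5.77e-08 to 3.38e-05 over these 7. Without post-MBT A and without post-MBT B respectively, the fall of tshz2 was -2.23 and -3.40, that of fancf -2.04 and -3.20, that of fjx1 -1.65 and -3.28 and that of prmt6 -2.85 and -1.69. Except for ddx28 these 7 passed the count filter only through the MBT libraries, as did mos, kbtbd7 and chst12a, so their falls describe genes that had to be high at the MBT to be tested.

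**Figure D5:**
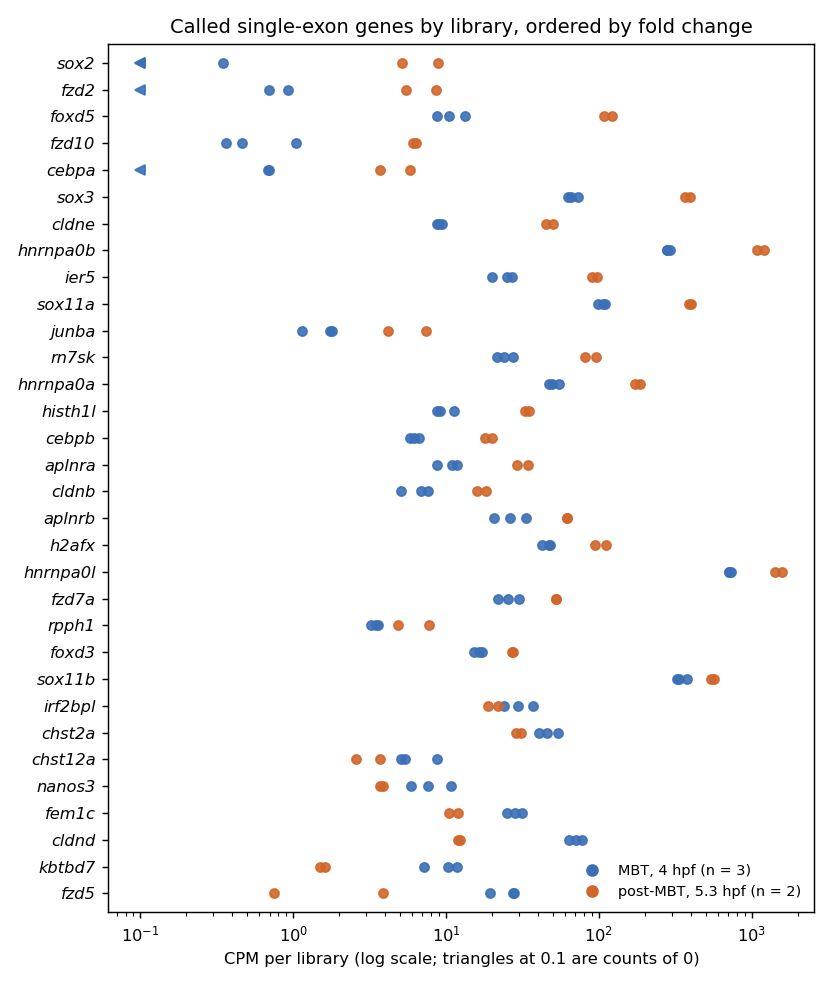
Level in CPM (horizontal log axis) of called single-exon genes chosen by the selection rule (vertical axis, ordered by fold change), with a point for each library (blue MBT, n = 3, orange post-MBT, n = 2). Triangles mark counts of 0. From sox2 to sox11b the orange points lie to the right of the blue, and from irf2bpl to fzd5 to the left.

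Rises outside the selection rule, also named after their values were seen, included several genes with hardly a count at the MBT. The fatty acid hydroxylase gene fa2h had 2, 2 and 2 counts in the MBT libraries and 35 and 22 in the post-MBT libraries, LOC100001908 had 4, 7 and 14 counts in the MBT libraries and 190 and 181 in the post-MBT libraries and LOC798286 had 1, 2 and 4 counts in the MBT libraries and 73 and 67 in the post-MBT libraries. All 3 passed the count filter only through the post-MBT libraries. No role is given for these loci in the tables used. foxc1a, a forkhead gene of mesoderm, had 1 count over the MBT libraries and 27 over the post-MBT libraries (ratio 46.6, exact 95% interval 7.68 to 1910) and was below the filter. Genes already present at the MBT that rose were the Notch feedback gene nrarpa (1.19 ± 0.15, adjusted p = 4.30e-11), the ribosome assembly gene rrs1 (1.19 ± 0.20, adjusted p = 3.88e-07) and the Hedgehog co-receptor gene gas1a (1.71 ± 0.27, adjusted p = 4.61e-08). Outside the blocks, members with placeholder names had a median of 1.25 (43 tested, 24 risen, 6 fallen) and those with other names 0.47 (86 tested, 41 risen, 19 fallen). Both sets include members that passed the count filter only through a single stage. Among them are LOC798286 and zgc:110182 in the first set and sox2 and fzd5 in the second. Such calls are not support for a direction, and the difference between the sets was not tested. With library totals the members with other names had 33 risen and 28 fallen and a median of 0.05. All 12007 tested genes then had 2173 risen, 5574 fallen and a median of -0.46.

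Single-exon paralogs offered comparisons within a library, since the ratio of their counts needs no scaling. Ratios were computed for 11 pairs of tested members, and no adjusted p was below 0.183. The members of a pair differ in sequence, so the ratio compares changes and not absolute levels. fbxl14a and fbxl14b encode F-box proteins: fbxl14a had 143, 253 and 159 counts in the MBT libraries and 145 and 151 in the post-MBT libraries and was not called (adjusted p = 0.464), while fbxl14b, which overlaps another row, had 10, 21 and 8 counts in the MBT libraries and 43 and 35 in the post-MBT libraries and rose (adjusted p = 5.99e-07). The log2 ratio of the first to the second was 3.85 ± 0.343 at the MBT and 1.92 ± 0.249 after it. For the nucleic-acid-binding Pur-beta genes, purba was not called (adjusted p = 0.688) and purbb rose (adjusted p = 3.19e-05), and the log2 ratio went from 2.41 ± 0.13 to 0.88 ± 0.0497. For sox11a over sox11b it went from -1.72 ± 0.096 to -0.49 ± 0.0155, and for ier5 over ier5l from -0.99 ± 0.17 to 0.69 ± 0.0281. Each of these ratios (mean ± SD, n = 3 and n = 2) had a 2-sided exact permutation p of 0.1, the smallest 10 splits allow, and 0.183 after Benjamini-Hochberg adjustment over the 11 pairs. The ratios of aplnra to aplnrb and of junba to junbb overlapped between the stages (exact permutation p = 0.5 and 0.3).

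The 242 members that were not tested were low throughout, and 189 members had fewer than 10 counts over all 5 libraries. They included both single-exon POU genes, the 2 heat shock genes, the 3 potassium channel genes, the 2 bHLH genes and the lone zinc-finger gene of the groups listed. Protocadherin and SOCS genes had no single-exon member. With no count filter all 468 members entered the fit, of which 177 rose and 27 fell. Over all 22656 rows in that fit 3937 rose and 3926 fell.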

How the data were processed

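Per the labels' protocols, total RNA was reverse-transcribed with random hexamers and tagged by a transposase. Novoalign 2.8 and DESeq2 are named in the submitters' processing notes. The deposited gene table holds, per the file headers, whole-number counts per library, exonic lengths, coordinates on D_rerio_Sep_2014 (printed from base 1), the authors' log2 ratios and the authors' score, 10 times the negative log10 of an adjusted p. A further 10 per-library columns were not used. Count columns name a stage and not a sample, so libraries carry letters within their stage (A to C, A to B). Replicate pairs exceeded sampling noise, with chi-square over degrees of freedom from 1.27 to 1.92.

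The counts entered edgeR 4.0.16 under R 4.3.3 (filterByExpr, minimum count 10, TMM, robust quasi-likelihood test), which was checked on simulated data. A call needed an adjusted p under 0.05. The SE is not reported by edgeR and was derived as the absolute log2 fold change over the square root of the test's F statistic. CPM use TMM-scaled library sizes. Scaling, filter, test (DESeq2 1.42.0), length trend, membership and libraries were varied. Shares and ratios used Python 3.11.15 and scipy 1.17.1. RefSeq symbols and biotypes were matched by gene name.

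Members and gene lists were chosen with earlier results of these data known. Named were the 8 largest rises and falls (called, libraries not overlapping, mean count of at least 50, no placeholder name), up to 4 members of each gene group by adjusted p, the 8 highest levels per kilobase at each stage and members moving against their group. Another 35 members were named after their values were seen. Promoter and protein sequences were not used here.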

Additional observations from a re-analysis of the deposited data

How the results depend on the processing

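The counts of 158 risen and 26 fallen members and their median of 1.05 kept their direction in all 12 refits. With DESeq2, 17 members fell. The median was 0.52 with the length trend removed, 0.64 with library totals and 0.70 with no filter. Over all tested genes these medians were 0.02, -0.46 and 0.03. Leaving out the 365 members that overlap any other row left 71 tested, with 63 risen, 1 fallen and a median of 1.24. Among all rows 151 span over 1 Mb, and leaving out only overlaps with shorter rows, added after the values were seen, left 211 tested, with 147 risen, 24 fallen, a median of 1.04 and a share difference of 2.37 points. Leaving out placeholder names gave 45 risen and a median of 0.47, and leaving out the dense blocks, chosen after the values were seen, gave 65 risen and a median of 0.68; the causes were not tested beyond the smaller number of members. The difference in share of 2.49 points was 1.10 over all rows including mitochondrial ones, 0.814 without overlapping members, 0.466 without placeholder names, 1.39 without the blocks, 1.65 without the ribosomal RNA row, 0.524 without both, and 2.29 to 2.70 with 1 library left out. Leaving out a post-MBT library leaves 1 in that stage, which is then assumed to vary like the MBT libraries. Of 184 called members, 135 were called in all refits and 49 lost the call in at least 1. In at least 1 refit 18 of the 184 changed sign. Of the named members these were LOC100004510 (-0.48 with the length trend removed, -0.12 with library totals), LOC100001004 (-0.0081 with the length trend removed) and ier5l (-0.10 with library totals), and the cause was not tested. Over 978 refits of 82 named members, 930 kept their side of the threshold, 34 lost and 10 gained a call, and 4 reversed the sign of a called member. The 930 include sign changes in members that were not called, such as foxb1a, at 0.33 in the main fit and -1.38 without post-MBT A. No paired analysis was possible because the labels do not tie the numbers in the count columns to replicate numbers that pair libraries across the stages.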
